A study of Mus musculus with 6 samples.

Results

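Histone H3 trimethylated at lysine 4 (H3K4me3) was found far from both ends of every annotated gene in 1485 of 15573 regions in MIN6 cells, a share of 9.54%. An H3K4me3 region is a union of overlapping peaks that holds a peak from each of the 2 H3K4me3 libraries. It was counted as far when its midpoint lay more than 10 kb from every end of a gene in the RefSeq table of GRCm38. Peak calls and position thus chose these regions, so their H3K4me3 values are given as a description, with no test. The other 14088 regions, with a midpoint at 10 kb or less from some gene end, are called near.

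The mark and the transcription factor MafA were mapped by CUT&RUN, in which an antibody guides a nuclease to its target in permeabilised cells and the released DNA is sequenced. MIN6 is an established mouse insulinoma line, a model of the insulin-secreting beta cell, and no genotype or treatment sets the groups apart. The 6 libraries, from 500000 cells each, differed by antibody alone, per the labels, with 2 replicates for endogenous MafA, 2 for H3K4me3 as positive control and 2 for IgG as negative control. The 2 IgG libraries were not analysed here. The labels do not say whether replicates came from separate cultures, so the spread between them may be technical.

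H3K4me3 is deposited on the nucleosomes around active and poised transcription start sites, above all where the DNA is rich in CpG, a C followed by a G. It is weaker at enhancers, which carry mainly the monomethylated form of the same lysine. MafA is a basic leucine zipper factor of mature beta cells that activates the insulin genes, and it binds DNA elements built on the core TGCTGA.

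The ends of a gene in the table mark its outermost limits, and many genes have further start sites between them. Of the 1485 regions, 1045 lay inside a gene body and 440 outside any gene. Of those inside, 313 overlapped the window of an internal RefSeq start, 250 bases before to 50 after it. These make up 21.1% of the far regions, against 62.8% of all H3K4me3 regions that overlapped such a window. The remaining 732 inside and all 440 outside overlapped no window. Below, away from starts means only that no window was overlapped. The table held 32851 windows for 49976 placed genes, so such regions may lie at starts that it lacks. All 1485 regions were thus far from the outer limits of genes, but not all were far from an annotated start. Exon and intron positions were not used here.

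The sequences before internal starts show the range of CpG content at starts with H3K4me3, beside 1 start without it. Each is the 150 bases that precede the start, 5′ to 3′ on the gene's strand, from the RefSeq start table of GRCm38.p6, and capitals mark each CG pair. Cacna1c, which encodes the pore-forming subunit of the L-type calcium channel Cav1.2, is shown with a start that carried H3K4me3 and another that did not. Larp1, Lingo1, Sgo2a and Urgcp are strongly marked starts, the first pair with MafA and the second without. Il1r1 has a MafA summit in its window, and Gm32605 is a CpG-poor start under one of the strongest MafA peaks of the far regions.
Cacna1c, marked start, chr6:119108496-119108645, minus strand: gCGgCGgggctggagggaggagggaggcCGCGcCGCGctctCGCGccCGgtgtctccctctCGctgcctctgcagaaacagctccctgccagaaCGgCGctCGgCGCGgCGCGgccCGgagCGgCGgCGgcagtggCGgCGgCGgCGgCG
Cacna1c, unmarked start, chr6:118757975-118758124, minus strand: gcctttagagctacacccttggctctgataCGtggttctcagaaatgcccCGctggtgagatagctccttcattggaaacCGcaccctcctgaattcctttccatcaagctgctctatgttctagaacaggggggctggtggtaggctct
Larp1, marked start, chr11:58008914-58009063, plus strand: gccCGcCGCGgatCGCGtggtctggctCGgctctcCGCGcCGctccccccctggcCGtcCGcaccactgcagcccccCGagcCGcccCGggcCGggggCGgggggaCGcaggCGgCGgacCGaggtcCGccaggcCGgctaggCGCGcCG
Lingo1, marked start, chr9:56635649-56635798, minus strand: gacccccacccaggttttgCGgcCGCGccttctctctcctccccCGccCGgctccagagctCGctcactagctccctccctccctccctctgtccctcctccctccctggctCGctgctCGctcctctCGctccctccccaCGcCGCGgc
Sgo2a, marked start, chr1:57995824-57995973, plus strand: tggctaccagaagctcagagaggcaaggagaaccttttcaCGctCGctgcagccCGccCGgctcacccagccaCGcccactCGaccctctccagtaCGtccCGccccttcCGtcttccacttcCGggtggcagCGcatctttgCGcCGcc
Urgcp, marked start, chr11:5741177-5741326, minus strand: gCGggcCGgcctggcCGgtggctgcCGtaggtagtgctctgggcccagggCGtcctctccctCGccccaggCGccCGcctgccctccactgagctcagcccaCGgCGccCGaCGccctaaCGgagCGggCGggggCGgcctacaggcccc
Il1r1, marked start, chr1:40266436-40266585, plus strand: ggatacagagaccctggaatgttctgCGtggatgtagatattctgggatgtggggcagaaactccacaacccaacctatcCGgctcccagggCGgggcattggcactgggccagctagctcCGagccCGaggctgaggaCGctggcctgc
Gm32605, marked start, chr10:117899387-117899536, plus strand: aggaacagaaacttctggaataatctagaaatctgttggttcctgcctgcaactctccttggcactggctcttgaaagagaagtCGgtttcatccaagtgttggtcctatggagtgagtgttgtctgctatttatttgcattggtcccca

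The marked Cacna1c stretch held 26 CpG and the unmarked stretch held 3. Larp1 held 25, Urgcp 16, Sgo2a 13, Lingo1 12, Il1r1 6 and Gm32605 1. Gm32605, with fewer CpG than the unmarked Cacna1c stretch, shows that single starts of the 2 kinds overlap. Its H3K4me3 region, chr10:117899528-117899901, is only 374 bp wide and covers just the last few bases of the printed stretch. The table held 32851 start windows, of which 1385 had their start more than 10 kb from every gene end, and 371 of these (26.8%) overlapped an H3K4me3 region. Of windows nearer to a gene end, 41.7% did.

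CpG content was compared as the observed over expected ratio, the number of CpG relative to what the C and G content of the 300-base window would give in random order. Its median was 0.668 at marked far starts and 0.228 at unmarked far starts. Near gene ends it was 0.790 at marked and 0.210 at unmarked starts. The windows held a median of 18 CpG at marked far starts and 4 at unmarked ones, with a GC content of 60.7% and 48.0%. Marked internal starts thus resembled marked starts at gene ends in base composition, with a slightly lower CpG ratio. The 371 marked windows fell in 297 genes, and 66 of these genes also had an unmarked far start.

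**Figure D1:**
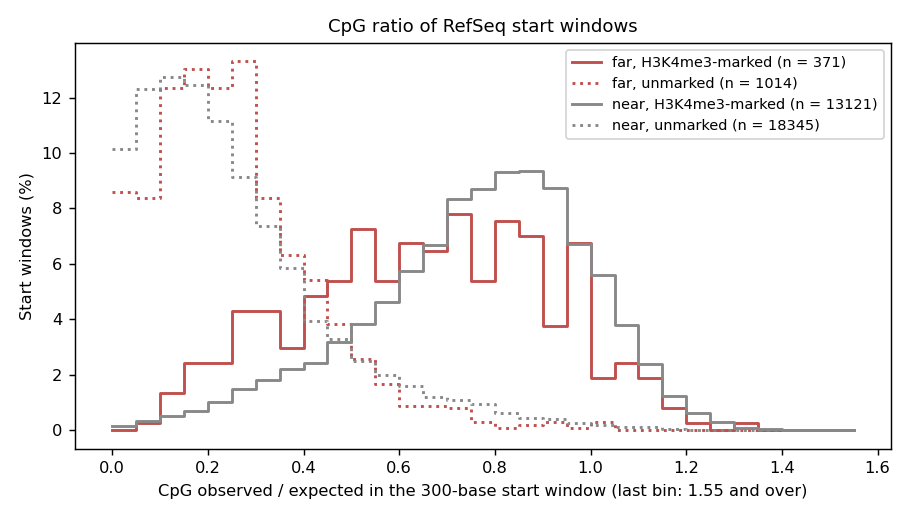
Share of RefSeq start windows (%) by CpG observed over expected ratio (horizontal axis), far from or near gene ends and with or without an H3K4me3 region. The marked groups sit to the right, with medians of 0.668 far and 0.790 near, and the unmarked groups to the left, at 0.228 and 0.210.

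A MafA region, a union of MafA peaks with a peak from each replicate, overlapped 36.9% of marked far starts and 3.35% of unmarked ones. The contrast was similar near gene ends, with 29.2% of marked and 2.27% of unmarked starts, and the share over all start windows was 13.5%. The letters TGCTGA, or their reverse complement TCAGCA, stood in 19.5% of all 32851 windows and in 16.4% of the marked far windows. They were more frequent in unmarked windows, where MafA was rare, at 25.3% far from and 23.0% near gene ends. Among marked far windows they stood in 21.9% of those with a MafA region (95% Wilson interval 15.8 to 29.5%) and in 13.2% of those without (9.49 to 18.2%). These intervals cover counting error only. They overlap, which does not settle whether the shares differ, and the difference was not tested. Median GC content was 57.3% in marked far windows with a MafA region and 63.2% in those without. The part of base composition was not tested. Of the 52 marked far windows that held a MafA summit, 13 held the letters. Near gene ends the letters stood in 20.2% of marked windows with a MafA summit and in 12.5% of those without a MafA region. No stretch printed above contains them.

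The H3K4me3 summit, the position of highest coverage in a peak, lay downstream of an internal start in most regions. Over the 262 regions with a single internal start, the median position was 192.5 bp downstream in replicate 1 and 206.5 bp in replicate 2, and 87.8% and 87.0% of summits were downstream. MafA summits in the 124 of these regions with MafA were centred closer to the start, with medians of 57 and 61.5 bp downstream, and 53.2% were downstream in both replicates. The quartiles of MafA replicate 1 ran from -242 bp (upstream) to 194.5 bp, while those of H3K4me3 replicate 1 ran from 118 to 302 bp downstream. MafA summits therefore lay on either side of the start, and H3K4me3 summits mainly on the transcribed side.

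H3K4me3 was weaker and narrower at far regions than near gene ends. Only the width at internal starts was close to that of all near regions. Fold enrichment, the authors' ratio of the fragment pileup at a summit to the background modelled there, had medians of 6.62 and 6.86 (replicates 1 and 2) at far regions and 16.1 and 15.0 near gene ends. At the 313 internal starts the medians were 13.3 and 12.8, still under the 18.3 and 16.5 of near regions that overlap a start window. Inside genes but away from starts they were 5.82 and 6.37, and outside genes 5.33 and 5.85. Median width was 1933 bp at internal starts, 1902 bp near gene ends and 2101 bp at near regions that overlap a start window. It was 939.5 bp elsewhere inside genes and 789 bp outside genes.

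**Figure D2:**
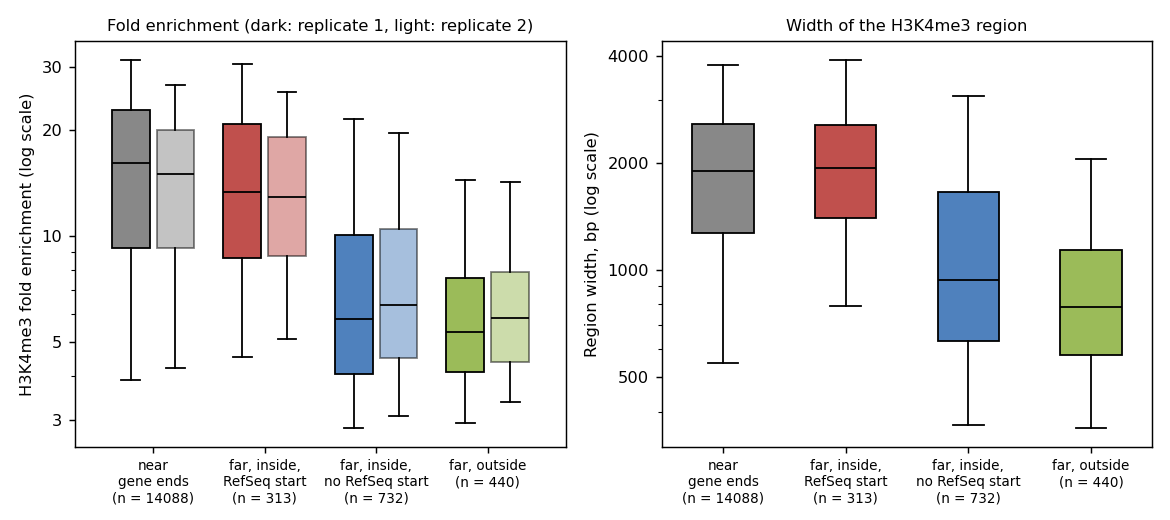
H3K4me3 fold enrichment in each replicate (left, log scale) and region width (right, log scale, bp) for near regions and the 3 kinds of far region; boxes span the quartiles, lines mark medians and whiskers reach the 5th and 95th percentiles. Far regions at internal RefSeq starts, with median folds of 13.3 and 12.8, sit closest to the near regions, and the other 2 kinds sit lower.

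The modelled background moved with these classes. Recovered from the deposited fold and p-value, it had medians of 9.88 and 9.36 fragments at far regions and 20.8 and 19.9 near gene ends. It was 17.96 and 17.85 at internal starts, 8.95 and 8.59 elsewhere inside genes and 7.88 and 7.73 outside. Since fold divides by this background, the gap in pileup was larger than the gap in fold, with medians of 62.6 and 63.4 at far regions and 362 and 327 near gene ends. The part of local background in the other differences was not tested.

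Replicates gave similar values for far regions, which the rule required to hold a peak from each library. Far peaks without a partner do not enter the first 2 values below. Fold enrichment had a Spearman correlation of 0.917 across the 1485 regions, which share libraries and modelled background and are not replicates. It differed by more than 1.5-fold between replicates in 129 regions (8.69%). Of all far peaks, 93.3% in replicate 1 and 83.2% in replicate 2 had a partner in the other library, fewer than the 98.2% and 94.3% of near peaks.

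Far regions were spread over chromosomes 1 to 19 and X. Their share of a chromosome's H3K4me3 regions ran from 7.06% on chromosome 17 to 16.2% on chromosome 18. The median distance to the closest gene end was 21.5 kb and the largest was 522 kb, inside Nrxn3. Gene bodies held 70.4% of far regions (95% Wilson interval 68.0 to 72.6%), fewer than the 89.3% of near regions and the 87.5% of all H3K4me3 regions. Of the bases of these chromosomes (from 3 Mb on) that lie more than 10 kb from every gene end, 43.8% are in gene bodies. Another far region lay within 10 kb of 163 members (10.98%), and 336 (22.6%) had no other H3K4me3 region within 100 kb.

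The limit of 10 kb fell among regions with both low and high values. Just inside the set, a region in Unc5a lay 10.01 kb from a gene end with H3K4me3 folds of 11.07 and 11.85, and one in Hdac9 lay 10.02 kb away with 24.4 and 18.5. The 3 closest outside the set lay 9.97 to 9.999 kb away, in Msrb3, between LOC115490477 and Gm23485, and in Gm12819, with folds of 5.18 to 6.89 and 8.41 to 9.14. MafA was found in Hdac9, Msrb3 and Gm12819.

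Among the 543 far regions inside genes with MafA, the strongest H3K4me3 peaks lay at internal starts. In Stk25, a STE20-family kinase gene, the region at chr1:93633807-93636486 had an H3K4me3 fold of 36.4 in replicate 1 and 29.1 in replicate 2, a mean of 32.8 ± 5.12 (SD, n = 2). Its MafA fold was 5.84 and 6.07. The Cacna1c region at chr6:119105948-119109401, whose start stretch is printed above, reached 34.4 and 30.6 for H3K4me3, with MafA at 2.47 and 2.88. Both regions were among the strongest far H3K4me3 signals, with MafA close to the median of far regions at Stk25 and below it at Cacna1c.

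Lingo1, which encodes a membrane partner of the Nogo receptor, had H3K4me3 folds of 32.9 and 28.9 at chr9:56633323-56636527 and MafA folds of 3.15 and 2.81. Osbpl9, of the oxysterol-binding protein family, had 31.0 and 32.2 at chr4:109117082-109118755, with MafA at 4.78 and 4.59. Larp1, an RNA-binding protein that controls translation of ribosomal protein mRNAs, had 32.1 and 27.0 at chr11:58008138-58011260 with MafA at 2.86 and 2.86. In all 5 genes the H3K4me3 region overlapped an internal RefSeq start.

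Without a MafA region found in both replicates, 502 far regions lay inside genes, and they included the highest H3K4me3 folds of all. Of these, 185 had a peak in MafA replicate 2 and 27 in replicate 1, and by replicate 2 alone the regions inside genes without MafA numbered 317. Sgo2a, which encodes a shugoshin that protects cohesin at centromeres, had 43.9 and 40.7 at chr1:57995562-57997879, a mean of 42.3 ± 2.27 (SD, n = 2). Urgcp had 40.7 and 35.1 at chr11:5739703-5742278. Triobp, an actin-binding protein gene, had 35.4 and 29.1 at chr15:78982336-78984516. These 3, and Pafah1b2 with 33.1 and 27.0 at chr9:45983372-45985647, overlapped internal starts. The Tenm3 region at chr8:48553298-48556375, in a teneurin adhesion gene, did not, and reached 33.3 and 27.8 at 106 kb from the nearest gene end.

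The strongest of the 226 regions outside genes with MafA lay between Cdk1 and Gm18636 at chr10:69398127-69400740, with H3K4me3 at 21.1 and 21.4 and MafA at 5.78 and 8.86. Between D130051D11Rik and Lncppara lay 2 named regions. One at chr15:85668661-85682529 spanned 13869 bp, the widest far region, with H3K4me3 at 21.6 and 17.6 and MafA at 5.11 and 4.81. The other, at chr15:85652742-85655335, had 17.7 and 15.4 with MafA at 9.003 and 7.24. The locus thus held 2 of the 5 strongest regions of this class.

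A region between Gm24176 and the microRNA gene Mir30a, at chr1:23255831-23258108, had 22.2 and 16.9 with MafA at 3.39 and 4.43, and lay 15.3 kb from Mir30a. One between Gm5218 and Ep300, the gene of a histone acetyltransferase, had 19.6 and 18.5 at chr15:81521742-81523989 with the lowest MafA folds of the 5, 1.955 and 2.60.

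The 214 regions outside genes without MafA were led by chr8:20122341-20122824, between Gm20778 and Gm21811, with H3K4me3 at 27.0 and 25.7 over only 484 bp. The 3224 bp region at chr8:73351821-73355044, between Mir28b and Gm7943, had 27.1 and 19.9. Isl1, a LIM homeodomain factor of islet cells, was the nearest gene on one side of a 4589 bp region at chr13:116704825-116709413, with 22.2 and 21.2, but its end was 397 kb away. A region 21.3 kb from the microRNA gene Mir30d, at chr15:68361207-68363983, had 24.6 and 18.03. The last, between Enpep and Gm35787 at chr3:129392674-129394120, had 18.7 and 22.1. All 10 regions named outside genes stood well above that class's medians of 5.33 and 5.85, as their choice by rank fixes.

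The next 4 regions by width lay inside genes. Pax2, a paired-box factor, held one of 8134 bp at chr19:44754676-44762809 with H3K4me3 at 30.1 and 24.6 and no MafA region. Elavl4, a neuronal RNA-binding protein gene, held one of 7534 bp at chr4:110283599-110291132 with 12.8 and 13.5 and MafA at 7.07 and 7.60. The zinc-finger gene St18 held one of 6917 bp at chr1:6729160-6736076 with 9.41 and 8.81, and Il1r1, the interleukin-1 receptor gene, one of 6104 bp at chr1:40265984-40272087 with 15.5 and 13.0. MafA was present but modest in both, at 4.38 and 4.54 in St18 and 2.70 and 2.997 in Il1r1.

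MafA, which the choice of regions did not use, was more frequent at far regions. It overlapped 769 of 1485 (51.8%, 95% Wilson interval 49.2 to 54.3%) and 5063 of 14088 near regions (35.9%, 35.2 to 36.7%), against 37.4% of all H3K4me3 regions. The difference was 15.8 percentage points (95% Newcombe interval 13.2 to 18.5). By single library, the far share was 54.1% in MafA replicate 1 and 68.7% in replicate 2, the near share 38.2% and 57.2%, and the share of all regions 39.7% and 58.3%.

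Far regions were thus higher by 15.9 points in replicate 1 (13.2 to 18.5) and by 11.5 points in replicate 2 (8.93 to 13.9). The library means were 61.4 ± 10.3% and 47.7 ± 13.5% (SD, n = 2 libraries), a difference of 13.7 points (two-sided exact permutation p = 0.667, where 2 values against 2 cannot go below 0.333). Far and near shares come from the same 2 MafA libraries, which this test does not use. Both libraries had the higher share at far regions, and with differences taken within libraries the exact permutation p was 0.5, the smallest possible, here and for the comparisons of MafA share and fold that follow. Intervals here take regions as independent and cover counting error only, and none of the 8 pairs of classes compared was adjusted for the others.

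**Figure D3:**
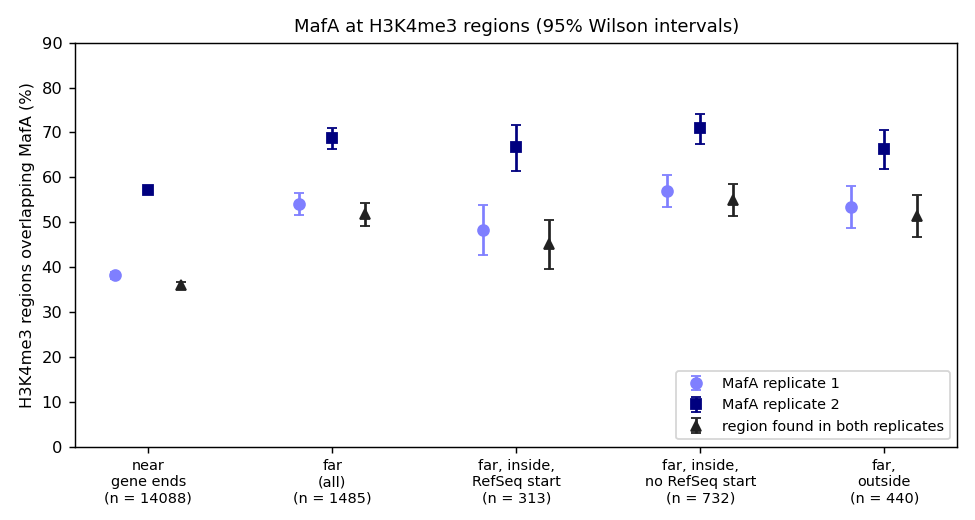
Share of H3K4me3 regions (%) with a MafA region found in both replicates or with a peak in a single MafA library, by class of region; bars are 95% Wilson intervals for counting error. In each list the far regions, at 51.8%, 54.1% and 68.7%, sit above the near ones at 35.9%, 38.2% and 57.2%.

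The share was higher at far regions with and without a RefSeq start window. At internal starts MafA was found in 45.0% of regions (39.6 to 50.6%), against 34.9% of near regions that overlap a start window, a difference of 10.1 points (4.61 to 15.7). Among regions that overlapped no start window the shares were 53.6% and 38.0%, a difference of 15.6 points (12.4 to 18.7). Of these, 106 of 1172 far and 1478 of 4615 near regions had an H3K4me3 fold above 15. Starts missing from the table may thus be among them. Within genes, internal starts had MafA less often than other far regions, by -9.87 points (-16.4 to -3.25) with both replicates and by -8.72 points (-15.2 to -2.12) in replicate 1. In replicate 2 that interval included 0, with -4.13 points (-10.4 to 1.90).

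The higher share was also seen among regions of like H3K4me3 fold, grouped by the geometric mean of both replicates. Among regions of fold 4 or less, MafA was found at 62.2% of far and 40.9% of near ones. Between 6 and 10 the shares were 51.1% and 35.5%, and above 15 they were 40.7% and 35.0%. By this measure far regions had MafA less often the stronger their H3K4me3, and the gap to near regions narrowed. By scaled H3K4me3 pileup, which is not divided by background, the far share had no such order, with 46.5% up to 30 fragments, 57.2% from 30 to 50 and 44.7% above 200, against 26.4%, 32.6% and 37.0% of near regions. By width, the shares were 51.4% and 35.2% up to 500 bp and 47.2% and 31.5% from 1000 to 2000 bp. Above 4000 bp, with 26 far regions, they were 65.4% and 65.1%. By modelled background, they were 38.2% and 22.0% up to 5 fragments and 55.7% and 39.9% above 30.

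**Figure D4:**
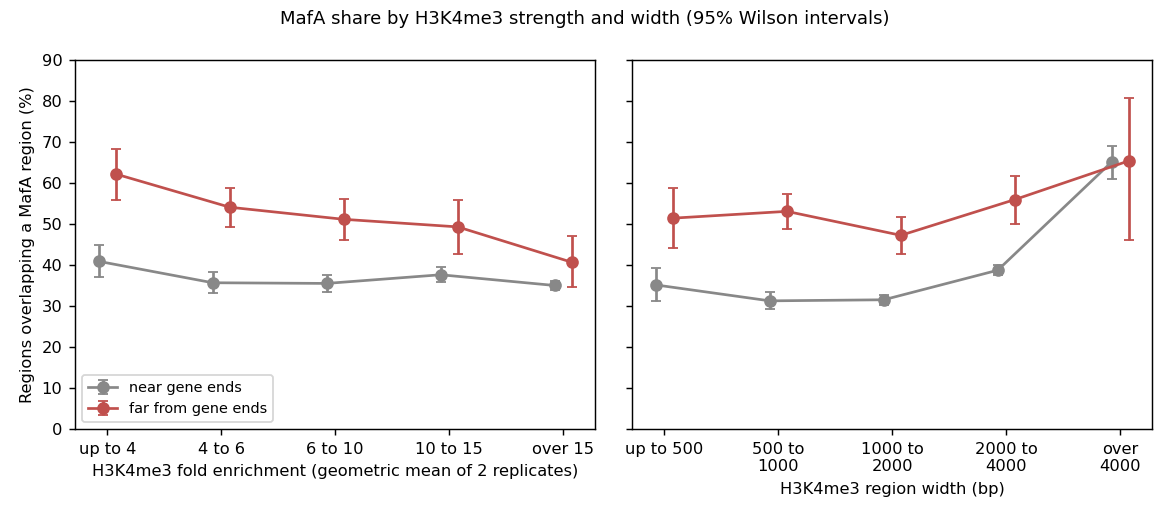
Share of far and near H3K4me3 regions (%) with a MafA region, within bins of H3K4me3 fold (left, geometric mean of 2 replicates) and of region width in bp (right); bars are 95% Wilson intervals. The far regions lie above the near ones in each fold bin, from 62.2% against 40.9% in the lowest to 40.7% against 35.0% in the highest, and the widest bin shows 65.4% against 65.1%.

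Over all far regions the MafA share inside genes could not be told from that outside at this number of regions. It was 52.0% inside and 51.4% outside, a difference of 0.60 points (-4.94 to 6.15). Per library the difference was 0.94 and 3.30 points, with a mean of 2.12 (two-sided exact permutation p = 0.667, smallest possible 0.333). Split by distance, with bins chosen after seeing the data, the difference changed sign. From 10 to 20 kb of a gene end MafA was found at 47.3% of 433 regions inside and 55.5% of 247 outside, a difference of -8.12 points (-15.8 to -0.31).

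Beyond 50 kb the shares were 55.8% of 224 inside and 39.2% of 51 outside, a difference of 16.6 points (1.40 to 30.3). The 2 MafA libraries gave -9.05 and -6.30 points in the closer bin and 19.7 and 18.6 points in the farther one. Between 20 and 50 kb the interval included 0, at 6.31 points (-3.24 to 15.7). Outside genes the share was lower in each farther bin and inside genes it was not, a contrast that was not itself tested.

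The 10 far regions with the highest MafA folds had H3K4me3 folds on both sides of the far medians, below them in both replicates at 7 and above them at 3. A MafA region is counted when it overlaps the H3K4me3 region by 1 bp, and both MafA summits lay inside the H3K4me3 region at 7 of the 10 and at 672 of all 769 (87.4%). Gse1 held the first, at chr8:120439120-120439969, with MafA folds of 37.6 and 43.6 (40.6 ± 4.24, SD, n = 2) and H3K4me3 folds of 4.32 and 4.44, but its MafA summits lay 2437 and 2441 bp outside the H3K4me3 region. Itpkb, which encodes an inositol-trisphosphate kinase, followed at chr1:180363914-180365823 with MafA at 33.3 and 36.2 and H3K4me3 at 4.05 and 5.20. In the uncharacterised gene Gm32605, chr10:117899528-117899901 had MafA at 31.7 and 35.3 and H3K4me3 at 3.96 and 5.21, over the CpG-poor start printed above. At Itpkb and Gm32605 the MafA summits of both replicates lay inside the H3K4me3 region.

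The others of the 10 strongest were in Zfp462 (29.8 and 34.9), the phospholipase gene Plcb4 (28.5 and 31.9), Rtn4rl1 (28.6 and 30.6), Gm36617 (28.5 and 31.1), the lipid phosphatase gene Mtmr7 (30.9 and 27.0), the sarcomere gene Mypn (23.9 and 31.6) and between Gm32533 and the aldose reductase gene Akr1b3 (27.9 and 27.3), all values MafA folds of replicates 1 and 2. The summits lay outside the H3K4me3 region by 1029 bp in both replicates at Rtn4rl1 and by 119 and 82 bp at Gm36617. The 3 regions above the far medians for H3K4me3 were those at Rtn4rl1, Mypn and Akr1b3. From Zfp462 to Akr1b3, the H3K4me3 fold of these 7 regions ran from 3.70 in replicate 1 at Plcb4 to 10.6 in replicate 2 at Rtn4rl1. Of these 10 regions, 9 lay inside a gene and 1 overlapped an internal start, beside 70.4% and 21.1% of all far regions.

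Over all 769 far regions with MafA, the MafA fold had medians of 5.54 and 6.06, against 4.21 and 4.49 at near regions with MafA. The log2 ratio of far over near was 0.40 and 0.43, a mean of 0.41 ± 0.02 (SD, n = 2; two-sided exact permutation p = 0.333, the smallest possible). It was 0.38 and 0.44 where both MafA summits lay inside the H3K4me3 region. Far regions away from starts inside genes had the highest medians, 6.09 and 6.92, and internal starts the lowest, 3.95 and 4.65, with 5.25 and 6.09 outside genes. With −log10 q as the measure it was 0.17, and with lists cut to equal length by fold it was 0.21. The direction depended on the measure: the scaled MafA pileup was lower at far regions, with medians of 45 and 74.3 against 56 and 92.7 near gene ends, where the modelled MafA background was 12.7 and 20.01 against 7.02 and 10.97.

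MafA and H3K4me3 fold were weakly and inversely related across these 769 regions, with Spearman correlations of -0.22 in both replicates, while their pileups gave 0.36 and 0.35. These are descriptions across regions that share libraries, and fold and pileup share the local background. Of the 769 regions, 746 held a single MafA region and 23 held 2.

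**Figure D5:**
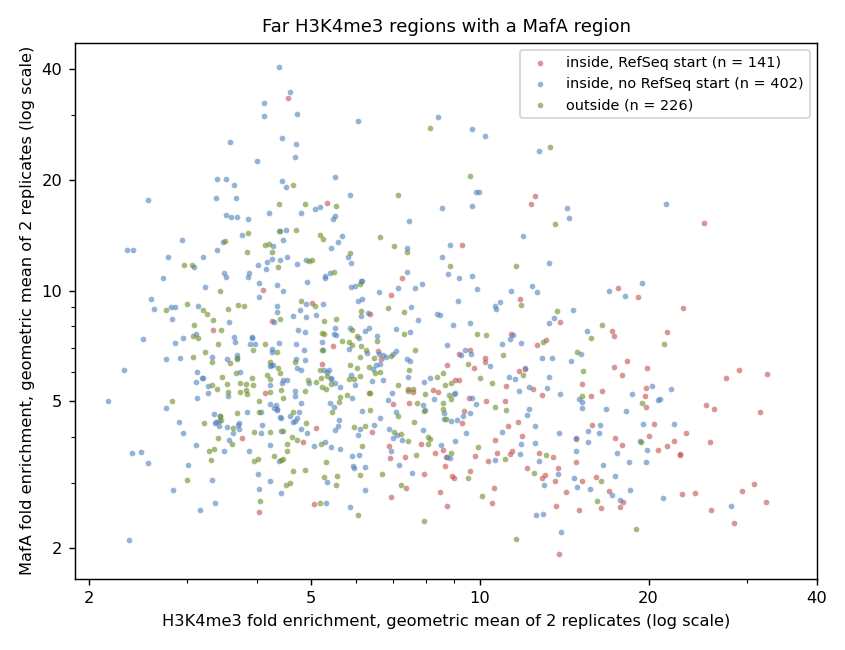
MafA fold enrichment against H3K4me3 fold enrichment (both log scales, geometric mean of 2 replicates) at the 769 far regions with a MafA region, each point a region coloured by its position inside a gene with or without an internal RefSeq start, or outside. The highest MafA value, 37.6 and 43.6 in Gse1, stands at H3K4me3 folds of 4.32 and 4.44, and the highest H3K4me3 values have modest MafA folds.

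MafA and H3K4me3 summits lay closest together outside genes. The median distance between them there was 83.5 bp in replicate 1 and 77 bp in replicate 2, and 63.7% and 65.9% of regions had them within 200 bp. Inside genes it was 162.5 and 143.5 bp away from starts and 337 and 358 bp at internal starts. Near gene ends it was 335 and 269 bp. It was 409 and 356 bp at near regions with a start window, and 150.5 and 131 bp at those without. At internal starts the distance was thus close to that near gene ends in replicate 1 and longer in replicate 2. Outside genes MafA summits sat close to the H3K4me3 maximum in most regions, which were also the narrowest.

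Of single-library peaks, a much larger part of the MafA lists than of the H3K4me3 lists was far from gene ends. The shares were 50.4% and 47.9% for MafA and 10.0% and 10.7% for H3K4me3, a difference of 38.8 points that was far above the spread between replicates (two-sided exact permutation p = 0.333, the smallest possible). Of the 12691 far MafA regions found in both replicates, 770 (6.07%) overlapped a far H3K4me3 region. Far H3K4me3 regions thus took in a small part of the far MafA regions, although MafA was present at 51.8% of them.

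The 1045 regions inside genes fell in 854 genes, of which 809 were protein-coding and 35 were long noncoding RNA genes. These 809 are 8.06% of the 10037 protein-coding genes longer than 20 kb, the length a gene needs to hold a far midpoint. The genes holding one were long, with a median of 113 kb against 49.2 kb for those 10037 genes, and the share holding one increased with length, from 2.81% of genes between 20 and 50 kb to 33.6% of those above 500 kb. A single far region was held by 700 of the 854 genes.

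Maml3, a coactivator gene of Notch signalling, and Pde4d, a cAMP phosphodiesterase gene, held the most, with 8 far regions each, of which 6 each carried MafA. In Maml3 the H3K4me3 folds stayed between 3.24 and 8.48 in replicate 1, while in Pde4d they ran from 3.60 to 21.4. Gse1 held 7, all with MafA, at H3K4me3 folds of 1.94 to 9.71 in replicate 1. Anks1b, Arhgap23, Chd9, Tcf4 and Tenm3 held 5 each, with MafA at 2, 3, 2, 3 and 2 of them. None of the regions in Maml3, Pde4d or Gse1 overlapped an internal RefSeq start. MafA was at most of their regions, beside 52.0% of all far regions inside genes, but regions of the same gene are not independent. Whether these genes differ from that share was not tested.

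Lists of genes were counted next, as a description, since they were drawn up with results of these data known. Of 40 beta cell genes, 20 were longer than 20 kb and 0 held a far H3K4me3 region. Of these 20, 11 were between 20 and 50 kb long, where 2.81% of protein-coding genes held one. Another 4 were up to 100 kb, 2 up to 200 kb, 2 up to 500 kb and 1 longer, where 7.91%, 15.8%, 21.4% and 33.6% held one. Of 20 genes of neuroendocrine synapses and ion channels, 12 held 16 far regions, 7 of them with MafA, where 52.0% of all far regions inside genes had it. This list is of very long genes: 14 were above 500 kb, of which 10 held a region, beside 33.6% of all protein-coding genes of that length. Neither the 5 housekeeping genes nor the 1 gene of other tissues that were long enough held any.

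Among these genes were Dpp6, Dpp10, Nrxn3, Nlgn1, Cntn4, Dlgap1, Rims2, Cacna1c, Cacna1d, Kcnma1 and Ptprd. The region with the most H3K4me3 after that at the Cacna1c start lay in Nlgn1, which encodes a postsynaptic adhesion protein, with 20.3 and 21.5 at an internal start and no MafA region. Cacna1d, the gene of the related L-type channel subunit Cav1.3, had 12.7 and 15.1 at an internal start, also without MafA. A second Cacna1c region, at chr6:118990037-118990976, showed the opposite balance, with H3K4me3 at 3.87 and 4.44 and MafA at 9.70 and 13.5, the highest MafA values of the 16. In Rims2, which encodes a scaffold of the exocytosis site, 2 regions had H3K4me3 at 11.6 and 6.86 and at 8.85 and 7.26, and replicate 1 was the higher in both. Cacna1c thus held both the strongest H3K4me3 region and the strongest MafA region of the list, at different positions.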

How the data were processed

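Peak lists for 2 H3K4me3 and 2 MafA CUT&RUN libraries were analysed, each called on a single library with MACS2, per the peak names and the submitters' processing notes, which name GRCm38 and mm10. MACS2's version, the aligner, the control library and read totals were not given in the sources used here, so library depth is unknown. Fold enrichment was deposited as a ratio, (pileup + 1) / (background + 1) by the format of MACS2. The deposited significance values are −log10 of the p-value and q-value at the summit. The deposited score was not used.

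Sharing 1 bp or more counted as overlap, and a region took the highest fold of each replicate. Gene limits and start windows came from RefSeq tables of GRCm38.p6, in which 49976 of 49997 genes had a position on a chromosome. Scaled pileup and modelled background were solved from fold and p-value. On simulated peaks the background error had a median of at most 0.771% and a 95th percentile of at most 6.13%. These peaks were made with the formulas that were solved. The error thus covers the solving step, not whether the deposited values follow those formulas. Shares have 95% Wilson and differences 95% Newcombe intervals. Library means were compared by exact permutation. Scipy 1.17.1, with numpy 2.4.6, gave the statistics, and matplotlib 3.10.9 the plots, in Python 3.11.15 with tables handled by pandas 2.3.3.

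Members, gene lists, tests and the rule for named regions were chosen with earlier results of these data known. That rule took the 5 strongest H3K4me3 regions of each class by mean rank of fold, the 5 widest, the 10 with the strongest MafA, the 3 on either side of the limit, the 5 genes with the most regions (all 8 are named because of ties), and each listed gene that holds a region. Some items that the rule names are not reported here. A planned display of sequence around summits needs a genome and was replaced by RefSeq start windows. Alternatives changed the distance, overlap, threshold, number of peaks, gene set, chromosomes, reference point, measure of strength and libraries. Counts of start windows, scaled pileup as strength, MafA summits inside regions for the fold ratio, bins of distance and the regions away from starts were chosen after seeing the data.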

Additional observations from a re-analysis of the deposited data

How the results depend on the processing

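The number of far regions was 2337 at 5 kb, 805 at 20 kb and 2556 with protein-coding genes only, and the share inside gene bodies became 76.0% at 20 kb and 54.0% with protein-coding genes only. These follow from how far is defined. The share with MafA, 51.8%, was 41.3% with 50% reciprocal overlap, 46.6% at a −log10 q of at least 5, 22.7% for equal numbers of the strongest peaks and 45.3% when both MafA summits had to lie inside the region. Without one library each it ranged from 51.3% to 68.7%, the latter without MafA replicate 1. The difference in MafA share between far and near regions stayed positive, from 10.1 to 16.4 points over 11 alternatives. That between inside and outside, 2.12 points, turned to -0.34 at a −log10 q of at least 5, -1.61 for equal numbers and -0.996 with protein-coding genes only, and was 11.6 at 20 kb. The log2 ratio of MafA fold, 0.41, became -0.30 with the scaled pileup, which by construction is not divided by the background, 0.21 for equal numbers of the strongest peaks and 0.17 with −log10 q. The causes of these changes were not tested. No alternative could reach 0.05. With a replicate block the difference in far share, MafA minus H3K4me3, was the same 38.8 points (exact permutation p = 0.5), and with a block on the MafA library, added after seeing the data, the 13.7 and 2.12 points and the ratio of 0.41 were the same (exact permutation p = 0.5 each). The labels do not say that replicate numbers pair the libraries, and the difference ranged from 27.6 to 48.3 points over 8 alternatives.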

Other observations

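The far regions with the highest modelled background were chosen after their values were seen. The first lay at chr1:195241584-195241966, between Gm29726 and Vmn2r-ps1, with a background of 80.0 and 72.0 fragments over 383 bp and H3K4me3 folds of 12.5 and 13.3. The next was a 250 bp region beside Vmn1r-ps151 on chromosome 18, with a background of 64.8 and 64.9 and folds of 4.58 and 4.29. Neither had a MafA region. Median background over all far regions was 9.88 and 9.36.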
